A study of Mus musculus with 7 samples.

Results

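DNA methylation in the mouse is set by a small group of writers, erasers and readers, and 9 of these genes were examined in hippocampal neural stem cell (NSC) cultures from mice with a conditional deletion of the Mediator subunit Med23. They were found in the deposited expression table by their symbols, as Dnmt1, Dnmt3a, Dnmt3b and Uhrf1 (writers and their guide), Tet1, Tet2 and Tet3 (erasers), and Mbd1 and Mbd2 (readers), 9 of the 24346 genes listed. The rule names them by symbol and sets no threshold on a measured value, although earlier results of these data were known when they were chosen. Each of the 7 libraries was made from primary neurospheres, free-floating balls of NSCs and progenitors, grown from the hippocampus of a single mouse on the C57/BL6 background. In the Med23 CKO group, mice KO_117, KO_214 and KO_218 carried Nestin-CreER and 2 floxed Med23 alleles. The 4 controls (WT_215, WT_116, WT_213 and WT_220) were littermates labelled wild type, which the study's methods describe as Med23 flox/+ or Med23 flox/flox. The study's text counts fewer control mice than the table holds and does not name them, so all deposited controls were used. Both groups received tamoxifen by mouth at 200 mg/kg once a day for 5 days. The labels give an age of 2 months and a recovery of 3 to 4 weeks. The methods place the treatment for NSC cultures at a younger age. Nestin-CreER acts in Nestin-expressing cells and their progeny, so cells of other origin in a neurosphere culture keep Med23. The comparison of Med23 CKO with control asks whether the mRNAs of the methylation machinery differ when Med23 is lost.

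Methyl groups sit on cytosines of CG dinucleotides. Dnmt1 copies them onto the new strand after each round of replication, guided by Uhrf1, which recognizes hemimethylated DNA, whereas Dnmt3a and Dnmt3b add methyl groups to unmethylated sites. Tet1, Tet2 and Tet3 oxidize 5-methylcytosine to 5-hydroxymethylcytosine and further forms, the first steps of its removal, and Mbd1 and Mbd2 bind methylated CG and recruit repressor complexes. In the adult hippocampus several of these enzymes are known from mouse genetics to take part in NSC self-renewal and in the maturation of newborn neurons.

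The promoters of 7 of the 9 genes could be read from RefSeq sequences (GRCm38.p6, the same assembly as mm10), in 12 windows of 300 bases, 250 before to 50 after an annotated start. Mbd1 and Mbd2 are named only. A Uhrf1, a Dnmt1 and a Tet2 promoter are shown because Uhrf1 and Dnmt1 varied most between libraries and Tet2 ran in another order, as described below. The 250 bases before the start are printed 5′ to 3′ on the strand of the gene, and capitals mark a match to an E2F motif. E2F factors drive genes of DNA replication.
Uhrf1, chr17:56303087-56303336, forward strand: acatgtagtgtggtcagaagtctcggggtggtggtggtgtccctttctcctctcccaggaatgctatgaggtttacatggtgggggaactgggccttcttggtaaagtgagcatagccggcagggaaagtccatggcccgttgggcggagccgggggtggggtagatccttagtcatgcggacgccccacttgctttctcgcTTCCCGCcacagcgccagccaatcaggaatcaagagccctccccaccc
Dnmt1, chr9:20952980-20953229, reverse strand: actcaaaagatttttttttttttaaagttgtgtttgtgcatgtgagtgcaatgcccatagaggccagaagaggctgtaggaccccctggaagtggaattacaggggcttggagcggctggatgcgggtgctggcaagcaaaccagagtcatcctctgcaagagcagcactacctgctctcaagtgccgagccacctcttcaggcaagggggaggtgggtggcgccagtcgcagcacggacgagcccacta
Dnmt1, match after another start, chr9:20952574-20952603, reverse strand: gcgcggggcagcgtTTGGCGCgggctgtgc
Tet2, chr3:133544391-133544640, reverse strand: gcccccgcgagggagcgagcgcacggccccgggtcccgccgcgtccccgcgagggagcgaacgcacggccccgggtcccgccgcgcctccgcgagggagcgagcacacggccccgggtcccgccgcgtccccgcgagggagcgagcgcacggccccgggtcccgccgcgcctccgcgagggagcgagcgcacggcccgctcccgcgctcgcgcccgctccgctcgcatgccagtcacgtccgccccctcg
The Uhrf1 stretch holds 10 CG dinucleotides, the longer Dnmt1 stretch 7 and the Tet2 stretch 51. Both strands of the windows were searched for the E2F motifs TTCCCGC and TTGGCGC and for the ETS motif CGGAAGT, which do not overlap each other in these windows. TTCCCGC matched once, 48 bases before the Uhrf1 start shown, and is held by 4.60% of all 32851 RefSeq windows of this length. TTGGCGC matched once, 34 bases after the Dnmt1 start that lies farthest downstream, inside annotated exon sequence, and is held by 2.45% of all windows. CGGAAGT, held by 6.42% of all windows, matched none of the 12. The window around this Uhrf1 start has 12 CG and the Tet2 window has 57, against a median of 7 over all windows. Windows at other starts of Uhrf1 and Dnmt1 differ from those shown. Another Uhrf1 window and that of the Dnmt1 start farthest downstream hold 33 CG each, and a further Dnmt1 window holds 2. A match is a string of letters in these windows and not evidence of binding.

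Levels are given as FPKM, fragments per kilobase of transcript scaled to the mapped fragments of the library, a unit that corrects for gene length so that genes can be set side by side within a library. Differences are given as log2 fold changes of FPKM + 1, Med23 CKO minus control, with their standard error (SE) and 95% interval, from limma. The fit covered the 14151 genes whose FPKM averaged 0.5 or more over the 7 libraries. All 9 genes passed this filter. Each mouse was a separate culture, but the read depth behind a value is unknown, and the number of libraries limits the precision.

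Med23 itself was measured at 10.1 to 12.9 FPKM in controls (mean 11.2 ± 1.29, SD, n = 4) and 8.12 to 9.97 in Med23 CKO (9.12 ± 0.934, n = 3), with no overlap. Its log2 fold change was -0.26 (SE 0.18, limma unadjusted p = 0.175, adjusted p = 0.9999), with an exact permutation p of 0.0571, where 0.0286 is the smallest that the 35 ways of choosing 3 of 7 libraries allow. Only exons 5 to 7 are deleted, so the gene-level value also counts sequence that remains, and no value within those exons was measured here. The 11 NSC markers were detected in every library, with a summed level of 1910 to 3895 FPKM in controls and 2105 to 3876 in Med23 CKO. Markers of other cells were present as well. The 14 microglia markers summed to 39.7 to 256 FPKM in controls and 42.4 to 1125 in Med23 CKO, the 9 oligodendrocyte lineage markers to 2951 to 5452 and 2237 to 3320, the 9 mural and fibroblast markers to 8.59 to 82.4 and 6.38 to 312, the 10 endothelial markers to 11.0 to 81.4 and 7.20 to 132, and the 8 neuron markers to 42.9 to 86.7 and 46.5 to 60.8. The highest microglial, endothelial and mural sums were all those of KO_214. The log2 fold change was below 0 for 5 of the 8 neuron markers and above 0 for 3. Of these 8, only Gad1, an enzyme of GABA synthesis named after its values were seen, did not overlap between groups. It was at 8.92 to 12.2 FPKM in controls and 2.21 to 5.24 in Med23 CKO (log2 fold change -1.32, SE 0.27, limma unadjusted p = 0.00147, adjusted p = 0.9999). Over all genes tested, the groups did not overlap for 2.32%, and 1.5% had a limma unadjusted p under 0.05. No marker was at 0 in all 7 libraries. In bulk RNA of this kind, fewer cells of a type and less RNA per cell cannot be told apart.

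The 9 genes did not separate the groups. None of the 9 passed an adjusted p of 0.05 in limma, and none had an unadjusted p under 0.05. Over all 14151 genes tested, 0 (0%) passed the adjusted threshold, and 212 (1.5%) had an unadjusted p under 0.05, 71 of them higher (0.502%) and 141 lower (0.996%). This division depended on scaling, at 99 higher and 119 lower with each library centred on its median and 102 and 123 with quantile normalization. The levels of the groups overlapped for all 9 genes, whereas they did not overlap for 328 (2.32%) of the genes tested, 111 higher (0.784%) and 217 lower (1.53%). The log2 fold change was below 0 for 7 of the 9 and above 0 for Dnmt3a and Mbd2, with a median of -0.11, against -0.03 and 56.2% below 0 over all genes tested. With each library centred on its median 6 of the 9 were below 0, and with quantile normalization 5 of the 9. The smallest limma p of a member was 0.413, for Mbd1, and exact permutation p-values ran from 0.371 to 0.971. The intervals were wide for Uhrf1, Dnmt1 and Tet3, so these data do not show that the levels were alike.

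**Figure D1:**
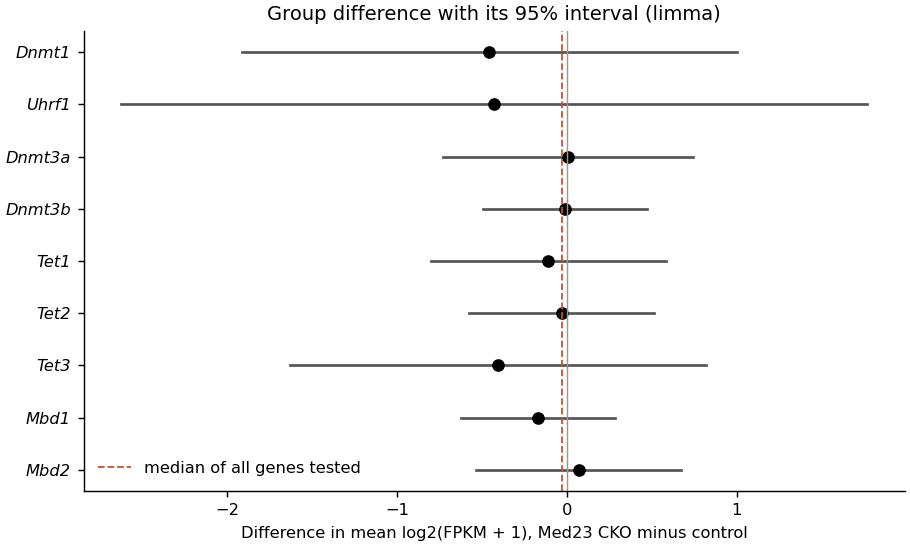
Log2 fold change of each of the 9 genes (points, Med23 CKO minus control, on log2(FPKM + 1)) with its 95% interval from limma (lines). The dashed line is the median of all genes tested, -0.03. All 9 intervals cross 0, and that of Uhrf1 is the widest, from -2.62 to 1.77.

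Dnmt1, the maintenance methyltransferase, lies on the reverse strand of chromosome 9 (chr9:20907209-20959888, GRCm38, GENCODE M21). Its level was 72.1 FPKM in WT_215, 26.8 in WT_116, 39.2 in WT_213 and 89.0 in WT_220, and 97.5 in KO_117, 18.9 in KO_214 and 26.8 in KO_218. The highest and the lowest library were both Med23 CKO, and the controls spanned 3.32-fold. The mean was 56.8 ± 28.8 FPKM in controls and 47.7 ± 43.3 in Med23 CKO. The log2 fold change of -0.46 (SE 0.62, interval -1.91 to 0.999) did not exceed the spread between mice (limma unadjusted p = 0.486, adjusted p = 0.9999, exact permutation p = 0.571). Its residual SD was larger than that of 91.5% of the genes tested. Without KO_117 the log2 fold change was -1.15 (limma unadjusted p = 0.0485, adjusted p = 0.597), and without KO_214 it was 0.01. Without single controls it ran to -0.76 (WT_116) and -0.19 (WT_220).

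Uhrf1, the partner that brings Dnmt1 to newly replicated DNA, lies on the forward strand of chromosome 17 (chr17:56303321-56323486). It was at 58.9 FPKM in WT_215, 11.97 in WT_116, 24.9 in WT_213 and 70.4 in WT_220. The Med23 CKO levels were 103 in KO_117, 6.58 in KO_214 and 20.5 in KO_218. It was the most variable of the 9, with 15.7-fold between the highest and lowest library, 5.88-fold among controls alone, and a residual SD above that of 98.1% of the genes tested. The mean was 41.5 ± 27.6 FPKM in controls and 43.5 ± 52.3 in Med23 CKO, so the mean FPKM was slightly higher in Med23 CKO while the log2 fold change was below 0, at -0.43 (SE 0.94, interval -2.62 to 1.77). Its sign turned with 1 library, as it was 0.45 without KO_214 and -1.44 without KO_117. The ratio of Uhrf1 to Dnmt1 was 0.447 to 0.817 in controls and 0.347 to 1.06 in Med23 CKO, and the lowest ratio was that of KO_214.

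Dnmt3a, a de novo methyltransferase, lies on the forward strand of chromosome 12 (chr12:3806007-3914443). Its level was 28.1 FPKM in WT_215, 15.9 in WT_116, 17.8 in WT_213 and 24.0 in WT_220, and 33.6 in KO_117, 17.0 in KO_214 and 16.1 in KO_218. KO_117 was highest again, and the other Med23 CKO libraries lay within the control range. The means were 21.5 ± 5.65 and 22.3 ± 9.86 FPKM, and the log2 fold change was 0.01 (SE 0.32, interval -0.73 to 0.74). The antisense transcript Dnmt3aos overlaps it and averaged 0.09 FPKM.

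Dnmt3b, the other de novo enzyme, lies on the forward strand of chromosome 2 (chr2:153649450-153687730). It was the least abundant of the 9 in every library. It was measured at 0.763 FPKM in WT_215, 0.648 in WT_116, 0.677 in WT_213 and 0.899 in WT_220, and at 1.17 in KO_117, 0.506 in KO_214 and 0.591 in KO_218. The Med23 CKO mice held both extremes. The log2 fold change was -0.01 (SE 0.21, interval -0.49 to 0.47), on a scale that understates changes of a gene at this level. Of the summed FPKM of Dnmt3a and Dnmt3b, Dnmt3a made up 96.1% to 97.4% in all 7 libraries.

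**Figure D2:**
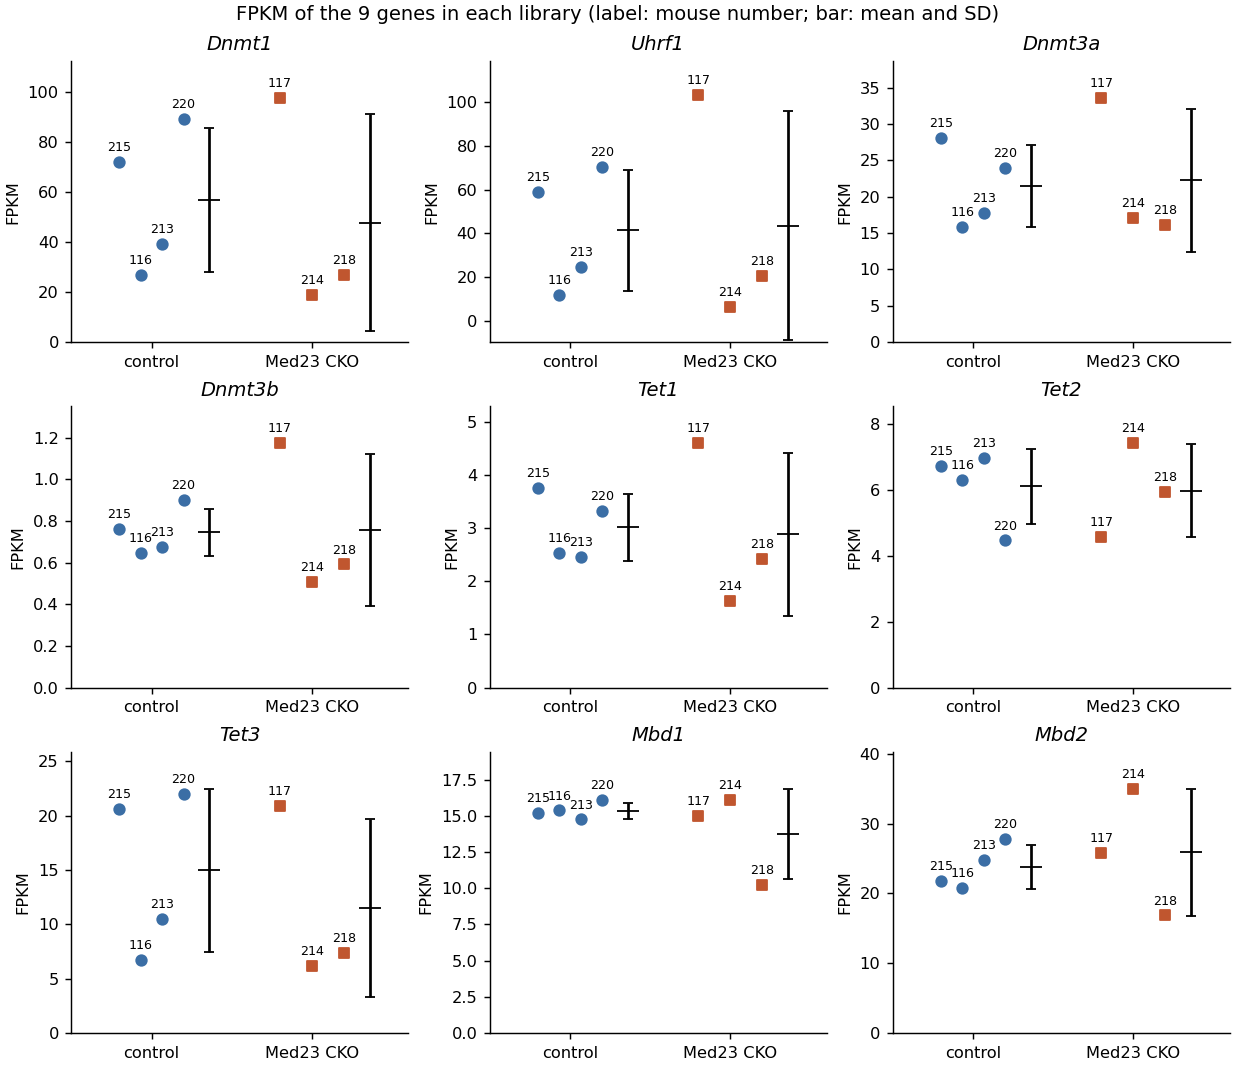
FPKM of each of the 9 genes (vertical axes, each from its own scale) in each library, with 4 controls (blue circles) and 3 Med23 CKO (red squares) labelled by mouse number, and the mean and SD of each group as a bar beside the points. KO_117 is the highest library for Dnmt1, Uhrf1, Dnmt3a, Dnmt3b and Tet1, and KO_214 is the lowest for Dnmt1, Uhrf1, Dnmt3b, Tet1 and Tet3.

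Tet3 was the most abundant of the 3 Tet dioxygenases on average and lies on the reverse strand of chromosome 6 (chr6:83362373-83459084). Its level was 20.7 FPKM in WT_215, 6.73 in WT_116, 10.5 in WT_213 and 22.0 in WT_220, and 20.9 in KO_117, 6.17 in KO_214 and 7.34 in KO_218. The libraries fell into a higher set (WT_215, WT_220 and KO_117) and a lower set, each with mice of both groups. The log2 fold change was -0.41 (SE 0.52, interval -1.63 to 0.82), and the means were 15.0 ± 7.53 FPKM in controls and 11.5 ± 8.21 in Med23 CKO. The transcript B230319C09Rik on the opposite strand averaged 0.16 FPKM. The library kit named in the methods does not keep strand, so reads of a gene and its opposite-strand neighbour cannot be told apart, which also holds for Gm42567 opposite Tet2 and Dnmt3bos opposite Dnmt3b, not analysed here.

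Tet1 (chr10:62804570-62908996, reverse strand) was at 3.76 FPKM in WT_215, 2.53 in WT_116, 2.45 in WT_213 and 3.32 in WT_220, and at 4.60 in KO_117, 1.63 in KO_214 and 2.41 in KO_218. The order was again KO_117 at the top and KO_214 at the bottom, on either side of all controls. Its log2 fold change was -0.11 (SE 0.30, interval -0.80 to 0.58).

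Tet2 (chr3:133463679-133545139, reverse strand) followed a different order between libraries. Its level was 6.72 FPKM in WT_215, 6.30 in WT_116, 6.96 in WT_213 and 4.46 in WT_220, and 4.58 in KO_117, 7.42 in KO_214 and 5.94 in KO_218. The lowest values were those of WT_220 and KO_117 and the highest that of KO_214. The order was not a full reversal, since WT_215, among the highest for Dnmt1 and Uhrf1, was above WT_116 and KO_218 here. The means were 6.11 ± 1.13 and 5.98 ± 1.42 FPKM, and the log2 fold change was -0.03 (SE 0.23, interval -0.57 to 0.51).

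The makeup of the Tet family therefore varied between mice of the same group. Tet3 was 66.3% of the summed Tet FPKM in WT_215, 43.2% in WT_116, 52.7% in WT_213 and 73.9% in WT_220, and 69.5% in KO_117, 40.6% in KO_214 and 46.8% in KO_218. Tet2 was 21.6%, 40.5%, 34.9% and 15.0% of the sum in the same controls and 15.2%, 48.7% and 37.9% in the same Med23 CKO mice. KO_214 was the only library in which Tet2 exceeded Tet3, with a ratio of Tet3 to Tet2 of 0.832, and the ratio reached 4.94 in WT_220. The mean share of Tet3 was 59.1 ± 13.7% in controls and 52.3 ± 15.3% in Med23 CKO, a difference of -6.77 percentage points within the spread of either group. It ran from -15.4 to -0.91 with 1 library left out. The mean share of Tet2 was 28.0 ± 11.8% and 33.9 ± 17.1%, a difference of 5.94 percentage points. The share of Tet1 stayed between 10.7% and 16.3%.

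**Figure D3:**
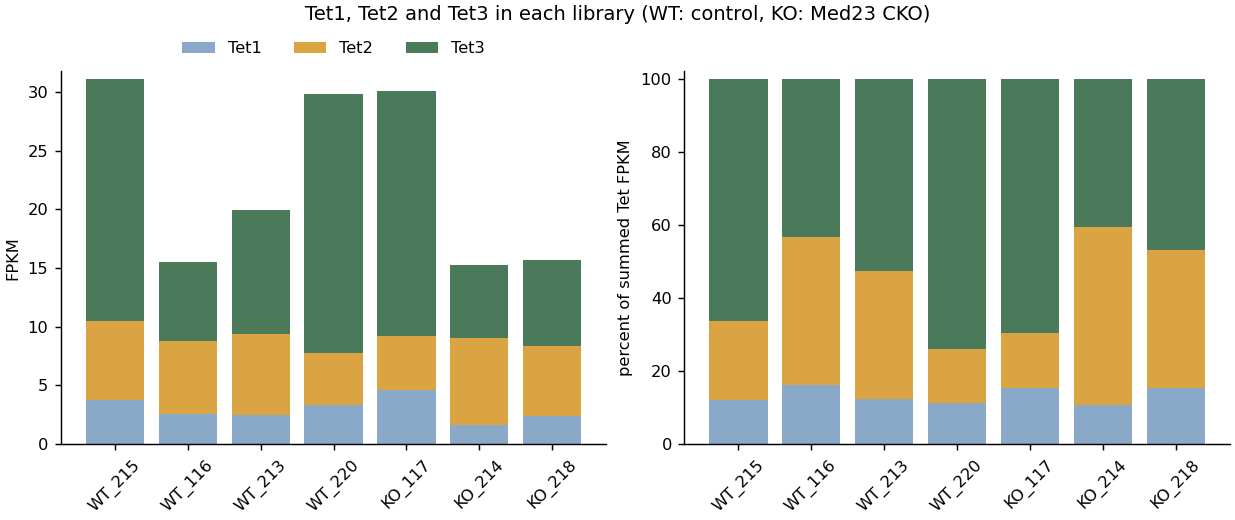
Tet1, Tet2 and Tet3 in each library, stacked as FPKM (left) and as percent of their summed FPKM (right), with controls labelled WT and Med23 CKO labelled KO. The sum ran from 15.2 to 31.1 FPKM, and the share of Tet3 from 40.6% in KO_214 to 73.9% in WT_220.

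Of the readers, Mbd1 was nearly constant outside 1 library. Mbd1, a methyl-CpG binding repressor, lies on the forward strand of chromosome 18 (chr18:74267605-74282732). It was measured at 15.2 FPKM in WT_215, 15.4 in WT_116, 14.8 in WT_213 and 16.1 in WT_220, and at 15.0 in KO_117, 16.1 in KO_214 and 10.2 in KO_218. Apart from KO_218, the Med23 CKO values lay within the narrow control range, which spanned 1.09-fold. The log2 fold change was -0.17 (SE 0.19, interval -0.62 to 0.29), and it was 0.02 without KO_218. The median log2 level of all genes tested was also lowest in KO_218, at 3.38 against 3.48 to 3.61 in the other libraries, and its part in the result was not tested. With each library centred on this median, the log2 fold change of Mbd1 was -0.14.

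Mbd2, a reader that works with the nucleosome remodelling and deacetylase (NuRD) complex, lies on the same chromosome (chr18:70568189-70626131, forward strand). Its level was 21.8 FPKM in WT_215, 20.7 in WT_116, 24.8 in WT_213 and 27.8 in WT_220, and 25.9 in KO_117, 35.03 in KO_214 and 16.8 in KO_218. The highest and lowest libraries were both Med23 CKO. The means were 23.8 ± 3.21 and 25.9 ± 9.09 FPKM, with a log2 fold change of 0.07 (SE 0.26, interval -0.53 to 0.67). The ratio of Mbd2 to Mbd1 was 1.35 to 1.73 in controls and 1.65 to 2.18 in Med23 CKO.

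By mean FPKM over the 7 libraries, the order was Dnmt1 (52.9), Uhrf1 (42.4), Mbd2 (24.7), Dnmt3a (21.8), Mbd1 (14.7), Tet3 (13.5), Tet2 (6.05), Tet1 (2.96) and Dnmt3b (0.751). Each gene was above the next in 7 of 7 libraries only for Dnmt3a over Mbd1 and Tet1 over Dnmt3b. Dnmt1 over Uhrf1, Tet3 over Tet2 and Tet2 over Tet1 held in 6 of 7 libraries, Uhrf1 over Mbd2 and Mbd2 over Dnmt3a in 5, and Mbd1 over Tet3 in 4. The neighbours whose order changed between mice do not differ beyond that spread. Uhrf1 moved most in this order, from first in KO_117 to sixth in KO_214. These are gene-level values, and the transcripts of a gene are not told apart.

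The libraries high in Dnmt1 and Uhrf1 were also high in proliferation genes. A list of 20 genes of replication and mitosis, such as Mcm2, Mki67 and Top2a, had a mean log2(FPKM + 1) of 5.37 in WT_215, 3.79 in WT_116, 4.45 in WT_213 and 5.44 in WT_220, and of 5.83 in KO_117, 2.86 in KO_214 and 4.54 in KO_218. The 3 libraries highest in this list, KO_117, WT_220 and WT_215, were also the 3 highest for 6 of the 9 genes, namely Dnmt1, Uhrf1, Dnmt3a, Dnmt3b, Tet1 and Tet3. The same 3 libraries were highest for 26.1% of all genes tested. Between groups, 19 of the 20 proliferation genes were lower and 1 higher in Med23 CKO, with a median log2 fold change of -0.40. None of the 20 passed an unadjusted p of 0.05 in limma. Over all genes tested, 56.2% were below 0, with a median of -0.03. The 20 genes were measured in the same libraries, so their signs are not independent. The highest and the lowest mean of the list were both Med23 CKO, in KO_117 and KO_214. By mean FPKM, Mki67 was higher in Med23 CKO (40.9 against 38.6 in controls) and Mcm2 lower (43.1 against 49.4).

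**Figure D4:**
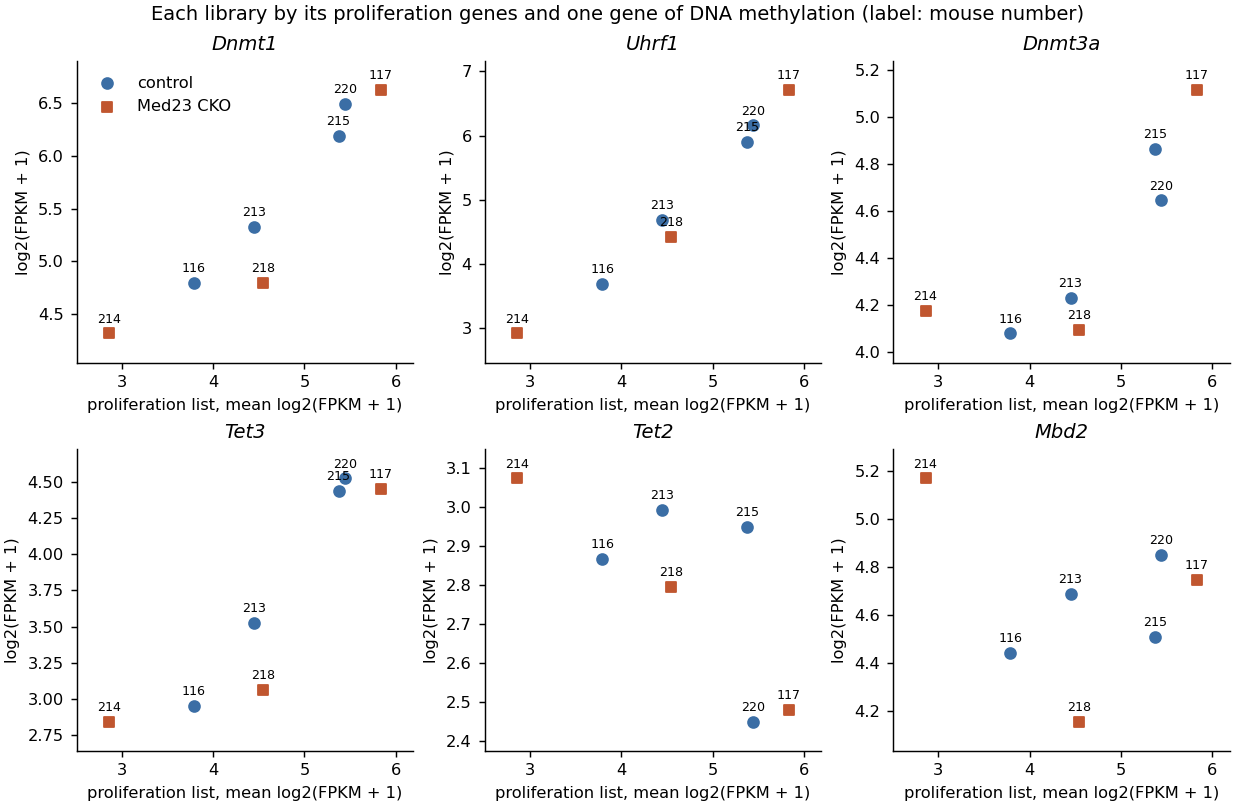
Level of 6 of the genes (vertical axes, log2(FPKM + 1)) against the mean level of the 20 proliferation genes (horizontal axes, same scale), with 4 controls (blue circles) and 3 Med23 CKO (red squares) labelled by mouse number. Uhrf1 and Dnmt1 rise with the list in both groups, Tet2 is lowest in 2 of the libraries highest in the list, and Mbd2 is highest in KO_214, the library lowest in the list.

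Over the 7 libraries, Uhrf1 had a Pearson r of 0.986 with this list (exact permutation p = 0.000595, adjusted p = 0.00536 over the 9 genes) and a Spearman rho of 0.964 (exact p = 0.00278, adjusted p = 0.0250). For Dnmt1, r was 0.940 (exact p = 0.00159, adjusted p = 0.00536) and rho 0.893 (exact p = 0.0123, adjusted p = 0.0277). These relations held without KO_214 and KO_117, the libraries farthest from the median of the list, with r of 0.986 for Uhrf1 and 0.914 for Dnmt1. For Tet1, r was 0.941 (exact p = 0.00278, adjusted p = 0.00625), rho was 0.821 (exact p = 0.0341, adjusted p = 0.0614), and r was 0.839 without those libraries. Dnmt3b gave an r of 0.864 (exact p = 0.0113, adjusted p = 0.0204), a rho of 0.893 (exact p = 0.0123, adjusted p = 0.0277) and an r of 0.779 without them. Dnmt3a gave an r of 0.821 (exact p = 0.0290, adjusted p = 0.0435), a rho of 0.786 (exact p = 0.0480, adjusted p = 0.0617) and an r of 0.898 without them. Thus the rank correlations of Tet1 and Dnmt3a did not pass the adjusted threshold. The p-values were adjusted over the 9 genes only, and the share of all genes that follow the list as closely is not given here. These relations are therefore not shown to be particular to the methylation genes. Mbd2 showed no relation past the threshold, with an r of -0.26 (exact p = 0.569, adjusted p = 0.640), a rho of 0.04 (exact p = 0.963, adjusted p = 0.963) and an r of 0.44 without KO_214 and KO_117.

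For Tet2, Tet3 and Mbd1 no pooled r is given, since the libraries fell into separate sets in which 1 gap took 0.506, 0.542 and 0.804 of the whole range of the gene. Within groups, the order of Tet3 matched the order of the proliferation list in 6 of 6 pairs of controls and 3 of 3 pairs of Med23 CKO mice, as did Uhrf1, Dnmt1 and Dnmt3b. Dnmt3a matched it in 5 of 6 and 2 of 3 pairs, Mbd2 in 5 of 6 and 1 of 3, Tet1 in 4 of 6 and 3 of 3, Mbd1 in 4 of 6 and 1 of 3, and Tet2 in 2 of 6 and 0 of 3. The labels name no batch, so no value within a batch can be given. The list and the genes come from the same libraries and share their depth and composition. The libraries of the list's 3 highest values also had the 3 lowest microglia sums, at 42.4 FPKM in KO_117, 39.7 in WT_220 and 86.2 in WT_215. They had the 3 lowest endothelial sums, at 7.20, 11.0 and 12.1 FPKM, and the 3 highest means of the NSC markers, at 5.95, 6.01 and 6.10 on the log2(FPKM + 1) scale. The mural and oligodendrocyte lineage sums did not set these 3 libraries apart. The mural sum of WT_215, 53.5 FPKM, was above 42.1 in WT_116 and 52.0 in KO_218. The oligodendrocyte lineage sums of WT_215 and WT_220, 3395 and 3105 FPKM, were above 2951 in WT_213 and 3067 in KO_218. The microglia, endothelial and mural sums were highest in KO_214, the library lowest in the list. The part of these cell types in the relations was not tested.

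With the mean of the proliferation list as a covariate, an alternative chosen after the data were seen, the log2 fold change was -0.17 for Dnmt1, 0.03 for Uhrf1 and -0.18 for Tet3, against -0.46, -0.43 and -0.41 without it. For Tet1 it was 0.01 against -0.11, and for Mbd2 0.04 against 0.07. The other members did not move towards 0. Dnmt3a was at 0.13 against 0.01, Dnmt3b at 0.04 against -0.01, Tet2 at -0.095 against -0.03, and Mbd1 at -0.178 against -0.169. None of the 9 genes had an unadjusted p under 0.05 in limma in either fit.

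Other genes of the methylation system were counted in 6 lists of 62 genes, of which 58 passed the filter. Of these, 42 were lower and 16 higher in Med23 CKO, with a median log2 fold change of -0.08. Over all genes tested, 56.2% were below 0, with a median of -0.03. None of the 58 passed an unadjusted p of 0.05 in limma, and none had groups that did not overlap. The 3 libraries highest in the proliferation list were the highest for 34 of the 58, against 26.1% of all genes tested. The partners of the writers, which include the Uhrf1 paralog Uhrf2, the remodeller Hells and the sliding clamp Pcna, had 10 tested, 8 lower and 2 higher (median -0.16). Uhrf2 was at 17.9 ± 2.03 FPKM in controls and 20.02 ± 1.41 in Med23 CKO, with a log2 difference of 0.16 (SE 0.16). Zfp57, a zinc finger protein that keeps methylation at imprinted regions, had a log2 fold change of -0.25 (SE 0.30).

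The list of base excision and demethylation genes had 17 tested, 13 lower and 4 higher (median -0.05). Gadd45g, a stress-induced gene linked to demethylation, was at 77.9 ± 27.4 FPKM in controls and 53.4 ± 12.3 in Med23 CKO, with a log2 difference of -0.49 (SE 0.31) with overlapping groups. Idh1, which makes the 2-oxoglutarate that Tet enzymes use, had a log2 fold change of 0.22 (SE 0.25). The other methyl-CpG readers had 4 lower and 3 higher of 7 (median -0.02). Zbtb4 had a log2 fold change of 0.32 (SE 0.30) and Mbd6 of -0.33 (SE 0.40), and the highest Zbtb4 value, 8.97 FPKM, was that of KO_214.

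The CXXC proteins, which bind unmethylated CG, had log2 fold changes below 0 for 7 of 7, with a median of -0.21, against 56.2% below 0 over all genes tested. None of the 7 passed an unadjusted p of 0.05 in limma, and their groups overlapped. The 3 libraries named above were the highest for each of the 7, against 26.1% of all genes tested. Cxxc4 had a log2 fold change of -0.39 (SE 0.27), and Kmt2a, a histone H3 lysine 4 methyltransferase, of -0.19 (SE 0.24). The NuRD complex, the deacetylase complex that Mbd2 recruits, had 12 tested, 8 lower and 4 higher (median -0.11). Its Chd3 remodeller had a log2 fold change of 0.53 (SE 0.35), with KO_214 highest at 13.0 FPKM, and its deacetylase Hdac1 was at 43.6 ± 4.04 and 51.3 ± 5.65 FPKM, a log2 fold change of 0.23 (SE 0.16). Methyl donor supply had 3 higher and 2 lower of 5 (median 0.06), with Mat2b at 0.19 (SE 0.25) and Ahcy, which clears S-adenosylhomocysteine, at -0.13 (SE 0.27) on the log2 scale.

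Germline genes that promoter methylation keeps silent in somatic cells were at low levels. The 12 genes of this list, among them Dazl, Ddx4 and Sycp3, summed to 2.14 FPKM in WT_215, 3.59 in WT_116, 2.14 in WT_213 and 0.954 in WT_220, and to 0.799 in KO_117, 4.02 in KO_214 and 3.97 in KO_218. The lowest sums were those of KO_117 and WT_220, which also had the lowest microglia, endothelial and mural sums, and most of each sum came from Ddx4, Sycp1 and Sycp3. Asz1 and Tex101 were listed at 0 in all 7 libraries, and 10 of the 12 did not pass the filter. Sycp3, of the synaptonemal complex, had a log2 fold change of 0.32 (SE 0.25), and Ddx4, a germ cell RNA helicase, of 0.16 (SE 0.40), with overlapping groups.

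The genes whose levels followed each member most closely were sought among 9919 genes with a mean of at least 5 FPKM, by Pearson r over the 7 libraries. These values are a description only, with no test. The nearest to Uhrf1 were the DNA helicase Pif1 and the replication protein A subunit Rpa2 (r of 0.999 each), and the nearest to Dnmt1 were the kinase Fyn (0.999) and the RNA processing factor Lsm2 (0.998). Dnmt3a was nearest to Jade1 (0.991) and Mtss1 (0.987), and Dnmt3b to the deacetylase Hdac9 (0.999) and Ube2ql1 (0.991). Tet1 was nearest to the DNA ligase Lig3 (0.990) and Nmral1 (0.990), Tet2 to Dock4 (0.986) and the zinc transporter Slc30a1 (0.982), and Tet3 to the histone H3 lysine 9 methyltransferase Setdb1 (0.999) and the signalling inhibitor Spry2 (0.997). Mbd1 was nearest to G6pc3 (0.992) and Ccdc86 (0.990), and Mbd2 to the matrix metalloproteinase Mmp14 (0.972) and Bloc1s4 (0.970).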

How the data were processed

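RNA of primary neurospheres was measured in 7 libraries, grouped by their labels as 4 control and 3 Med23 CKO. The authors removed adapters, aligned reads to mm10 with TopHat at default settings and computed FPKM per gene with Cuffdiff; the kit does not keep strand, and the annotation is not given in the sources used here. The deposited table also holds the authors' group means and their comparison as fold change, test score, p-value and q-value, none of which were used. Low FPKM values gave no whole fragments (at most 2.98% of low genes shared a ratio step), so depth is unknown.

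log2(FPKM + 1) was analysed for genes averaging 0.5 FPKM or more, by limma 3.58.1 with trend (R 4.3.3), two-sided, with Benjamini-Hochberg adjustment over all 14151 genes, and by exact permutation of single values in Python 3.11.15 with numpy 2.4.6. The fit was checked on simulated data. Coordinates are from GENCODE M21. Genes named by rule are the 9 members, Med23, the 2 with the smallest p in each list (none of the lists of DNA methylation genes had one under 0.05) and the 2 most alike each member. Further genes are named as examples of a list, as neighbours that overlap a member, or because they were at 0 in all 7 libraries. Gad1 and the genes that passed a threshold only in an alternative fit were named after their values were seen. The members and lists were chosen with earlier results of these data known. The rule that withheld a pooled r (1 gap over 0.5 of the range) was set after values were seen. Alternatives were another pseudocount (0.1), other filters (none, and a mean FPKM of 1), quantile normalization, median centring, no trend, array weights, each library left out, and the proliferation list as a covariate, the last chosen after seeing the data. Protein sequences were not used here.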

Additional observations from a re-analysis of the deposited data

Results flagged for a closer look

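In the 4 controls, the mean log2(FPKM + 1) of the base excision and demethylation genes was 3.38 in WT_116 against 3.63 to 3.65 in the other 3. Its gap to the nearest control was 0.922 of the whole control range, above the 95% critical value of Dixon's test for 4 samples. This was 1 of 35 control groups examined in this way, and chance alone flags about 1 in 20. WT_116 was also the control lowest in the proliferation list, at 3.79, and the part of this in the gap was not tested.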

How the results depend on the processing

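No paired analysis was possible because the mice of the groups share no number in the labels. The number of genes with an unadjusted p under 0.05 was 71 higher and 141 lower of 14151 tested. It was 195 and 273 of 24346 tested with no filter on low values. With array weights, whose estimation stopped short of its convergence tolerance, it was 193 and 887. With the proliferation list as a covariate, chosen after the data were seen, it was 196 and 392. With 1 library left out it was 44 to 362 higher and 71 to 410 lower, with the most of both without KO_117. At the adjusted threshold, 0 genes were higher in all 7 libraries, and 0 to 1 with a library left out, namely Snora64 without KO_214 and Gm38671 without KO_218.

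Of the 9 members, 0 to 1 were lower at an unadjusted p under 0.05 with a library left out (Dnmt1 without KO_117), and 1 with array weights (Mbd1, log2 fold change -0.41, limma unadjusted p = 0.0336, adjusted p = 0.594). Of the other DNA methylation genes, 1 was higher with the covariate (Idh1) and 2 lower with array weights (Xrcc1 and Cxxc4). With a library left out, 0 to 1 were higher (Apobec1 without KO_117) and 0 to 1 lower (Gadd45g without WT_215 and Kdm2b without KO_117). The cause of these moves was not tested.

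The sign of the log2 fold change turned for Dnmt3a (-0.27) and Mbd2 (-0.29) with array weights, for Dnmt3b with quantile normalization (0.0316), centring (0.0171) and the covariate (0.0441), for Uhrf1 (0.0316) and Tet1 (0.00583) with the covariate, and for Tet2 with quantile normalization (0.00796). With a library left out it ran from -1.15 to 0.00672 for Dnmt1, -0.32 to 0.19 for Dnmt3a, -0.17 to 0.0927 for Dnmt3b, -1.44 to 0.45 for Uhrf1, -0.41 to 0.14 for Tet1, -0.18 to 0.12 for Tet2, -0.91 to -0.10 for Tet3, -0.29 to 0.0167 for Mbd1 and -0.17 to 0.34 for Mbd2. Tet3 thus stayed below 0 in each of these, as did Med23, from -0.32 to -0.19. With array weights the log2 fold change was -0.43 for Med23 (limma unadjusted p = 0.0205), -0.76 for Dnmt1, -0.64 for Uhrf1 and -0.68 for Tet3. The median of the 9 ran from -0.32 to 0.01, and the difference in the share of Tet2 from -1.46 to 15.3 percentage points. The Pearson correlations with the proliferation list kept their side of the threshold with centring and with a pseudocount of 0.1. At a mean FPKM of at least 1, Dnmt3b was not tested. With 4 and 3 libraries, a fall of 1 log2 unit lies inside the intervals of Uhrf1, Dnmt1 and Tet3.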
